A study of Mus musculus with 10 samples.

Results

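Nebulin, the tropomodulins, and the leiomodins set and maintain the length of the actin filaments of striated muscle. Expression of 6 of these genes, Neb, Tmod1, Tmod3, Tmod4, Lmod2, and Lmod3, was followed across 10 skeletal muscle libraries, out of 16112 genes in the count table. The genes were chosen by name for their place in thin filament length control, with earlier results of these data known. They were not picked by a measured value, and Ensembl identifiers were matched to symbols in GENCODE M21 (GRCm38). All 6 had reads in every library, from 126 (Lmod2 in EDL 3) to 560929 (Neb in psoas 1).

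RNA came from whole muscles of wild-type mice, namely the extensor digitorum longus (EDL, a fast muscle of the lower leg, 3 libraries), the psoas (a fast muscle of the hip, 3 libraries), and the soleus (a slow muscle of the calf, 4 libraries). The mice were 42, 54, and 44 days old for EDL 1 to 3 and for psoas 1 to 3, and 42, 44, 32, and 44 days old for soleus 1 to 4. All were wild-type animals of a B6C3Fe a/a-Ttnmdm/J colony, a line that segregates a titin mutation. The animals had been used in another experiment, which is not described in the sources used here. The study set out to compare expression between the muscles, and 3 pairwise comparisons follow from it. These share libraries with each other, and for that reason are not independent.

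In the sarcomere, the barbed ends of the actin filaments are anchored in the Z-disk and the pointed ends lie toward the M-line. Nebulin is a giant protein that lies along the filament in skeletal muscle. Tropomodulins cap the pointed end and slow the gain and loss of actin there, whereas leiomodins, relatives of the tropomodulins, bind the same end, nucleate actin filaments, and favor longer filaments.

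Soleus had 8.31-fold more Lmod2 RNA than EDL and 3.72-fold more than psoas, and it had 2.05-fold less Tmod1 RNA than EDL and 3.37-fold less than psoas. Lmod3 was 2.24-fold higher in soleus than in EDL. Neb, Tmod3, and Tmod4 passed the thresholds (a fold change above 2 with an adjusted p below 0.01) in none of the 3 comparisons. In soleus versus EDL, Tmod1 failed to pass in 14 of 23 alternative settings and Lmod3 in 2, while Lmod2 passed in all. In soleus versus psoas, Lmod2 failed to pass in 6 and Tmod1 in 1. Values are given as normalized CPM (counts scaled to the library total times its TMM factor) for comparison between muscles. For comparison between genes, they are given as FPKM (counts scaled by DESeq2 size factors and divided by the kilobases of summed exons). Fold changes, standard errors (SE), and Benjamini-Hochberg adjusted p-values are those of edgeR's quasi-likelihood test over all 16112 genes.

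The libraries held between 12737971 (soleus 3) and 50431713 (psoas 1) counted reads. Myosin heavy chain genes matched the labels, since Myh7 (the slow myosin) averaged 1117 FPKM in soleus, 5.91 in EDL, and 0.71 in psoas, and Myh4 (the fast 2B myosin) averaged 202, 7238, and 8982 FPKM. EDL 3 stood apart from the other EDL libraries, with summed muscle fiber markers (5 of 5 listed genes in the table) at 111309 normalized CPM against 79910 and 81853, and with summed endothelial markers (6 of 6 in the table) at 126 against 219 and 192. For that reason, values without it are given with both EDL comparisons of Neb, Tmod1, and Tmod4. For Tmod3, Lmod2, and Lmod3, they are given with psoas versus EDL. Reads of EDL 1, EDL 2, psoas 1, and psoas 2 were quality-trimmed by the authors and the others were not, and these 4 libraries are also the male EDL and psoas libraries, so that trimming and sex cannot be told apart there. Without EDL 3, soleus versus EDL sets untrimmed soleus against trimmed EDL, so that muscle and trimming cannot be told apart in it. The labels hold 7 animal codes, 3 of them with a pair of libraries from different muscles, and the methods count fewer mice than codes. In whole muscle, a lower value may come from fewer cells of a type or from less RNA per cell, and these cannot be told apart.

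Positions are those of GENCODE M21 on GRCm38. Neb (ENSMUSG00000026950) lies on chromosome 2 at 52136647-52378474 on the minus strand. Its locus overlaps the antisense gene Gm13522, the pseudogene Gm13521, and the miRNA gene Gm22095, none of which had a place in the count table. Tmod1 (ENSMUSG00000028328) lies on chromosome 4 at 46038935-46116032 on the plus strand and overlaps Tstd2, a gene of the opposite strand, by 1287 bases. Tmod3 (ENSMUSG00000058587) lies on chromosome 9 at 75497707-75559657 on the minus strand and contains the pseudogene Gm48789. Tmod4 (ENSMUSG00000005628) lies on chromosome 3 at 95124476-95129209 on the plus strand. Both leiomodin genes are on chromosome 6, Lmod2 (ENSMUSG00000029683) at 24597762-24605414 on the plus strand and Lmod3 (ENSMUSG00000044086) at 97238534-97252759 on the minus strand. The counts are per gene, so that exons and isoforms were not separated, and the strand setting of the counting is not given in the sources used here.

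Promoters are shown for Tmod1 and Lmod2, the pair of genes that differed between soleus and both fast muscles in opposite directions. The RefSeq promoter table (GRCm38.p6) held 3 of the 6 genes, the third being Tmod4, and Neb, Tmod3, and Lmod3 had no entry. Each window runs 5′ to 3′ on the plus strand from 250 bases before the RefSeq start to 50 bases from it, and capitals mark matches to the motifs searched on both strands. The windows are chr4:46038972-46039271 for Tmod1 and chr6:24597521-24597820 for Lmod2. For Tmod1, the RefSeq start (46039222) lies downstream of the GENCODE start (46038935), so that this window falls wholly within the GENCODE gene.
Tmod1: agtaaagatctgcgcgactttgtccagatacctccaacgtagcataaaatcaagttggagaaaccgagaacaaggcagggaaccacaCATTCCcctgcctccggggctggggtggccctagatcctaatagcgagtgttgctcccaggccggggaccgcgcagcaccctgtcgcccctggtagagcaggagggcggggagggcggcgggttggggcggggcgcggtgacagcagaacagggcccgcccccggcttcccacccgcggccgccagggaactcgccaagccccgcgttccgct
Lmod2: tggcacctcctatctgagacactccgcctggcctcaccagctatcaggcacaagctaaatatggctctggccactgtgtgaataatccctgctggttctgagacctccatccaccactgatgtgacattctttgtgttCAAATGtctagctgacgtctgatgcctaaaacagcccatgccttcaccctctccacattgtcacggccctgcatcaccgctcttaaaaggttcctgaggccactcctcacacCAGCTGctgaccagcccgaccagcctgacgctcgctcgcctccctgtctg
The Tmod1 window held 1 MCAT motif (CATTCC), 163 bases before the RefSeq start (position -163), and no E-box (CANNTG), TATA box (TATAAA), MEF2 site, or CArG box. The Lmod2 window held 2 E-boxes, CAAATG at position -112 and CAGCTG at position 1, the first base of the RefSeq transcript, and none of the other 4 motifs. The Tmod4 window also held 2 E-boxes, CATCTG at position -193 and CACCTG at position -63. Of 32851 promoter windows of this length, 72.3% held an E-box, 14.7% an MCAT motif, 13.6% a TATA box, 3.19% a MEF2 site, and 1.63% a CArG box. These matches describe the letters of the windows only.

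**Figure D1:**
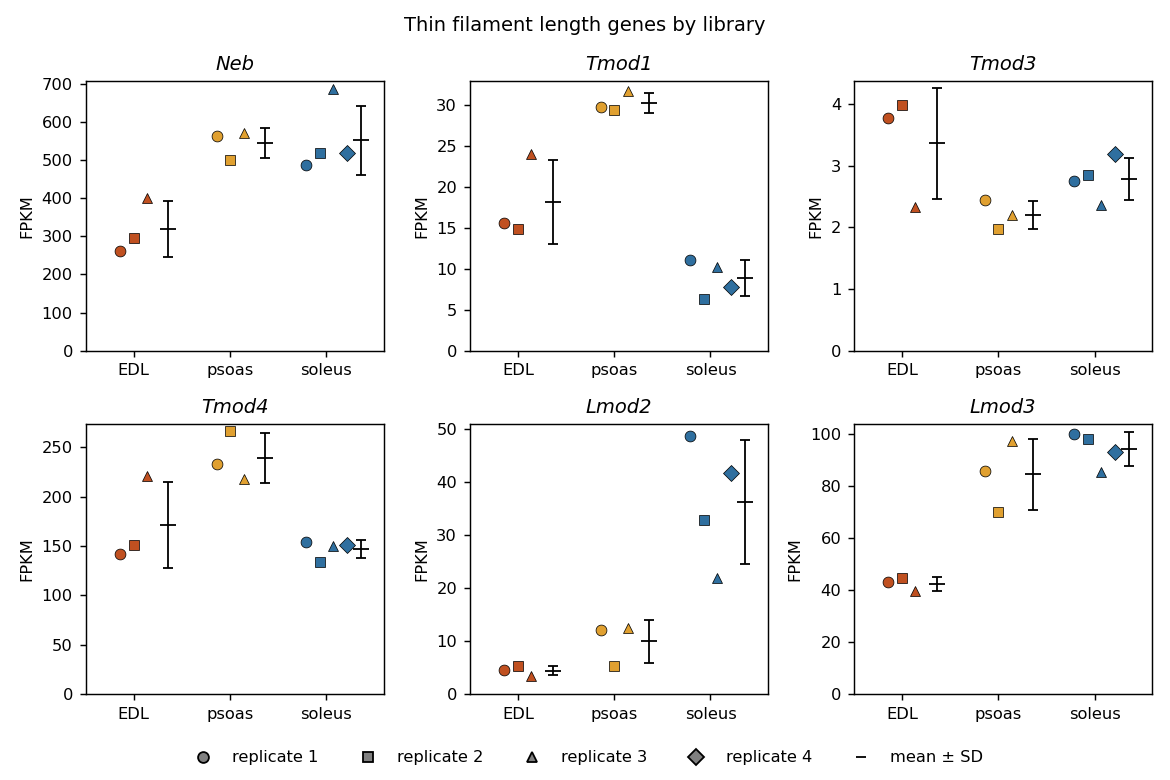
FPKM (vertical axes, each from 0) of the 6 genes in each library of EDL, psoas, and soleus (horizontal axes), with the symbol giving the replicate number and the bar beside each group the mean ± SD. Lmod2 was at 21.8 to 48.6 FPKM in soleus and at most at 12.5 in the other muscles, while Tmod1 was at 6.31 to 11.02 in soleus and at 14.8 or above elsewhere.

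Per length, Neb RNA was the highest of the 6 in every library and Tmod4 the second. Neb averaged 319 ± 73.3 FPKM in EDL (SD, n = 3), 544 ± 39.1 in psoas (n = 3), and 552 ± 90.0 in soleus (n = 4). Tmod4 averaged 172 ± 43.4, 239 ± 24.9, and 147 ± 9.22 FPKM in the same order of muscles, and Lmod3 42.5 ± 2.7, 84.6 ± 13.8, and 94.3 ± 6.53. In EDL and psoas, Lmod3 was followed by Tmod1 and then by Lmod2 in FPKM in every library. In soleus, Lmod2 stood above Tmod1 in each of the 4 libraries. Lmod2 averaged 4.37 ± 0.87 FPKM in EDL, 9.91 ± 4.03 in psoas, and 36.2 ± 11.6 in soleus, against 18.1 ± 5.10, 30.3 ± 1.22, and 8.84 ± 2.17 for Tmod1. Tmod3 had the lowest FPKM in each library, at 3.36 ± 0.90, 2.20 ± 0.23, and 2.78 ± 0.34. This rank depends on the length used, since the summed exons of Tmod3 hold 11151 bases and its longest transcript 3918. Per longest transcript, Tmod3 was at 10.7, 11.3, and 6.64 FPKM in EDL 1 to 3, above Lmod2 (4.46, 5.19, and 3.46), and was also above it in psoas 2 (5.63 against 5.27). By summed exons, the ranges in EDL overlapped (2.33 to 3.98 FPKM for Tmod3 and 3.46 to 5.19 for Lmod2). Within each EDL library, Tmod3 was the lower of the pair.

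Between psoas and EDL, 0 of the 6 genes passed the thresholds by edgeR, against 2.11% of all genes, and DESeq2 and limma-voom also gave 0. All 6 had an unadjusted p under 0.05, as did 4679 of the 16112 genes, and 1 (Lmod3) had an adjusted p under 0.05, a level that 11.1% of all genes reached. The normalized CPM of the muscles did not overlap for 4 genes (Neb, Tmod1, Lmod2, and Lmod3), against 29.6% of all genes. Between soleus and EDL, 3 genes passed (5.77% of all genes), 2 of them higher in soleus (3.59% of all genes) and 1 lower (2.18%), and the same number, 3, had an adjusted p under 0.05 (18.6% of all genes). In that comparison, 4 did not overlap (29.5% of all genes). Between soleus and psoas, 2 genes passed (5.69% of all genes), 1 higher (2.99%) and 1 lower (2.71%), while 3 had an adjusted p under 0.05 (14.5%) and 3 did not overlap (25.8%). The median log2 fold change of the 6 genes was 0.74 for psoas versus EDL, 0.29 for soleus versus EDL, and 0.11 for soleus versus psoas, beside 0.01, -0.05, and 0.02 over all genes.

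**Figure D2:**
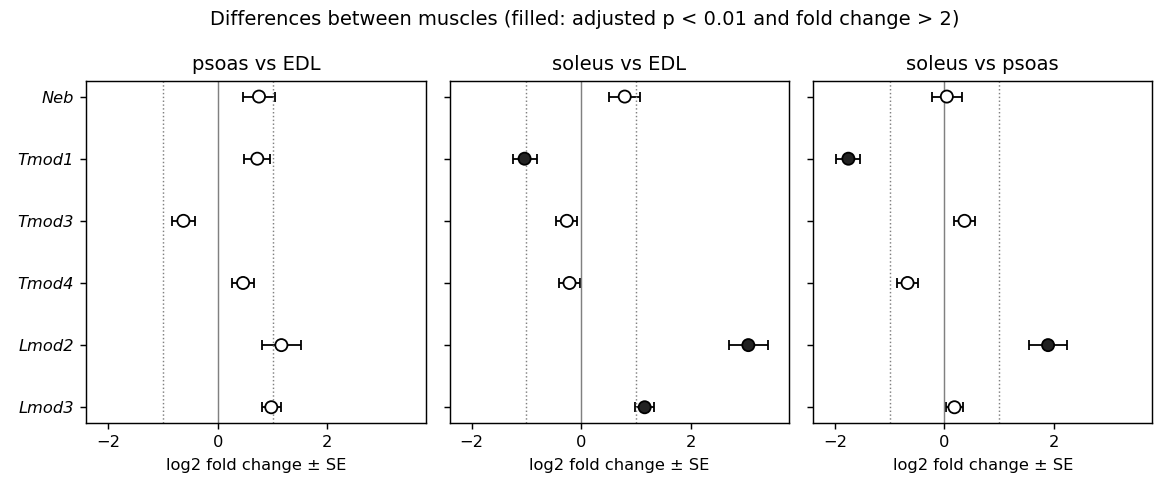
Log2 fold changes with their SE (horizontal axes) of the 6 genes (vertical axis) in the 3 comparisons, with filled points for genes past the thresholds and dotted lines at a fold change of 2. Filled points are Tmod1, Lmod2, and Lmod3 for soleus versus EDL, and Tmod1 and Lmod2 for soleus versus psoas.

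Nebulin RNA (Neb) was lowest in EDL. It was at 7058, 7871, and 10810 normalized CPM in EDL 1 to 3, at 14801, 13172, and 15392 in psoas 1 to 3, and at 13079, 14318, 18065, and 14150 in soleus 1 to 4. Every EDL library was below every psoas and soleus library, and the psoas and soleus values overlapped. The log2 difference was 0.75 (SE 0.29, adjusted p = 0.119) for psoas versus EDL and 0.80 (SE 0.28, adjusted p = 0.0675) for soleus versus EDL, both short of the thresholds. Without EDL 3, these became 0.95 (adjusted p = 0.0441) and 0.997 (adjusted p = 0.0268). Over 21 alternative fits, the adjusted p ranged from 0.00317 to 0.363 and from 0.00067 to 0.314, and the fold change stayed under 2. The lowest value of each range came from DESeq2, the method of the study. In the trimmed libraries, psoas was higher than EDL by 0.91, and in the untrimmed pair by 0.51. The soleus mean was higher by 0.46 than untrimmed EDL 3. For soleus versus psoas, the log2 difference was 0.04 (SE 0.27, adjusted p = 0.939). In soleus and psoas of the same animal code, Neb differed by -0.18 and -0.12 on the log2 scale, and in soleus 2 over EDL 3 by 0.41.

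The skeletal actin gene Acta1, which codes for the main protein of the filament that nebulin lines, also had its lowest mean in EDL. Its log2 difference was 0.79 (SE 0.37, adjusted p = 0.186) for psoas versus EDL and 0.74 (SE 0.35, adjusted p = 0.158) for soleus versus EDL. The ratio of Neb to Acta1 counts per kilobase, which needs no library scaling, was 0.0466, 0.0512, and 0.0331 in EDL 1 to 3. It was 0.0435, 0.0439, and 0.0343 in psoas 1 to 3 and 0.0415, 0.0378, 0.0554, and 0.0371 in soleus 1 to 4. All 3 muscles overlapped, with means of 0.0436 ± 0.0094 (SD, n = 3), 0.0406 ± 0.0054 (n = 3), and 0.0429 ± 0.0085 (n = 4). EDL 3 had the lowest ratio of all libraries. Its Acta1 was at 18863 normalized CPM, against 8746 in EDL 1 and 8883 in EDL 2. Acta1 ranged from 17343 to 25907 in psoas and from 18226 to 22048 in soleus. EDL 3 thus lay within both ranges, unlike its Neb. Without EDL 3, the EDL mean of the ratio was 0.0489, and the ratios of EDL 1 and 2 were above that of every psoas library. The mean ratio was thus not lower in EDL than in psoas or soleus, with or without EDL 3. Trimmed and untrimmed libraries differed in this. Among trimmed libraries, EDL was above psoas, whereas untrimmed EDL 3 (0.0331) was below psoas 3 (0.0343) and every soleus library (0.0371 or more). The summed muscle fiber markers, a list that includes Acta1, Myh4, and Myh7, were lower in each EDL library than in any psoas library (128675 to 144426 normalized CPM) and were at 66573 to 90876 in soleus, where Myh4 is low. The median log2 fold change of the 5 markers was 0.74 for psoas versus EDL, 0.66 for soleus versus EDL, and -0.16 for soleus versus psoas. Markers of connective tissue also set EDL apart. Summed tendon markers (5 of 5 in the table) were at 464 to 500.2 normalized CPM in EDL, 26.7 to 68.9 in psoas, and 77.0 to 346 in soleus, and summed fibroblast markers (4 of 4) at 1810 to 3272, 555 to 844, and 554 to 1149, with none at 0 in all libraries of a muscle. The RNA integrity number reported by the authors was also higher in each EDL library than in any psoas or soleus library. The part of these markers and of RNA integrity in the Neb values was not tested.

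Tmod1, the tropomodulin first described in red blood cells and also found in striated muscle, was highest in psoas and lowest in soleus. Its normalized CPM was 62.5, 58.7, and 95.9 in EDL 1 to 3, 116, 115, and 127 in psoas 1 to 3, and 44.0, 25.9, 40.0, and 31.7 in soleus 1 to 4. No library of one muscle overlapped another muscle. Soleus was lower than psoas by 1.75 on the log2 scale, a fold change of 3.37 (SE 0.22, adjusted p = 0.000486), and stayed past the thresholds in the fits without each library in turn (highest adjusted p = 0.00271). Tmod1 fell by 1.03 (SE 0.22, adjusted p = 0.00896) in soleus versus EDL. The latter value lay close to both thresholds, the adjusted p was between 0.0105 and 0.0300 in each of the 10 fits without 1 library, and the call was lost in 14 of 23 alternative settings (adjusted p from 0.000282 to 0.0300 over the fits that test for any difference). Without EDL 3, the difference was -0.78 (adjusted p = 0.0169). For psoas versus EDL, it was 0.72 (SE 0.24, adjusted p = 0.0714), and without EDL 3 it was 0.98 (adjusted p = 0.0130, the lowest of 21 fits, the highest being 0.272). In the trimmed libraries it was 0.93 and in the untrimmed pair 0.40.

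The lower Tmod1 of soleus was also seen between libraries of the same animal code, at -1.40 (soleus 1 over psoas 1), -1.89 (soleus 2 over EDL 3), and -1.999 (soleus 4 over psoas 3) on the log2 scale. Among untrimmed libraries, the soleus mean differed by -1.44 from EDL 3 and by -1.84 from psoas 3, which are single libraries. Tstd2, the overlapping gene of the opposite strand, was at 10.3 to 19.3 normalized CPM in the 10 libraries and held between 11.6% (psoas 1) and 39.6% (soleus 2) as many reads as Tmod1. Summed erythroid markers (6 of 9 listed genes in the table, none of them at 0 in all libraries of a muscle) ranged from 5.82 to 73.8 normalized CPM in EDL, 16.8 to 137 in psoas, and 3.54 to 25.8 in soleus. In EDL, they were lowest in EDL 3, the library with the highest Tmod1. Of the 6, 4 are globin genes, and globin RNA was depleted in making the libraries, so that the sum is no measure of red cell content. Alas2, the heme synthesis enzyme of erythroid cells and no globin, was at 3.57 to 20.5 normalized CPM in EDL, 7.15 to 35.2 in psoas, and 2.07 to 4.24 in soleus. The part of these markers in the Tmod1 values was not tested.

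Tmod4, the tropomodulin typical of skeletal muscle, was highest in psoas. It was at 248.6, 260, and 385 normalized CPM in EDL 1 to 3, 396, 454, and 380 in psoas 1 to 3, and 269, 239, 255, and 266 in soleus 1 to 4. EDL 3 lay within the psoas range and EDL 1 and 2 within the soleus range, whereas every psoas library was above every soleus library. The log2 difference of soleus versus psoas was -0.67 (SE 0.18, adjusted p = 0.0312), a fold change of 1.59, and was -0.56 and -0.51 in the animal codes with both muscles. For psoas versus EDL, it was 0.46 (SE 0.20, adjusted p = 0.149), and 0.69 without EDL 3 (adjusted p = 0.0160, with a range of 0.0160 to 0.475 over the alternatives). In the trimmed libraries it was 0.74 and in the untrimmed pair -0.02. For soleus versus EDL, it was -0.21 (SE 0.18, adjusted p = 0.439), and 0.02 without EDL 3 (adjusted p = 0.947, with a range of 0.235 to 0.947 over the alternatives). Thus, the sign of the last difference came from EDL 3.

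Tmod3, the tropomodulin found in most tissues, gave 42.8, 44.6, and 26.4 normalized CPM in EDL 1 to 3, 26.9, 21.9, and 24.9 in psoas 1 to 3, and 31.0, 33.0, 26.2, and 36.4 in soleus 1 to 4. EDL 1 and 2 were above all other libraries, and EDL 3 fell within the psoas and the soleus ranges. The log2 difference was -0.63 (SE 0.21, adjusted p = 0.0758) for psoas versus EDL, -0.26 (SE 0.19, adjusted p = 0.360) for soleus versus EDL, and 0.37 (SE 0.20, adjusted p = 0.253) for soleus versus psoas. Without EDL 3, the first of these was -0.83 (adjusted p = 0.00838, with a range of 0.00838 to 0.245 over the alternatives), still under a fold change of 2, and in the untrimmed pair of psoas 3 and EDL 3 it was -0.09. Summed endothelial markers were at 219, 192, and 126 normalized CPM in EDL 1 to 3, 116 to 126 in psoas, and 144 to 168 in soleus, with none of the 6 at 0 in all libraries of a muscle. Summed macrophage markers (4 of 4 in the table) were at 72.6, 89.9, and 33.2 in EDL 1 to 3, 11.8 to 32.3 in psoas, and 29.3 to 45.2 in soleus, and the fibroblast markers were at 3272, 2352, and 1810 in EDL 1 to 3 and at most at 1149 elsewhere. In EDL 1 and 2, all 3 sums were above those of every other library, as was Tmod3. The part of these markers in the Tmod3 values was not tested.

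Lmod2, best known as the leiomodin of the heart, was highest in soleus. It was at 8.97, 10.3, and 6.92 normalized CPM in EDL 1 to 3, 23.4, 10.3, and 25.1 in psoas 1 to 3, and 97.2, 67.3, 42.7, and 84.5 in soleus 1 to 4. Every soleus library was above every fast muscle library. Psoas 2 lay only just above EDL 2, and the other psoas libraries were higher. Lmod2 rose by 3.05 log2 units (SE 0.36, adjusted p = 0.000366) in soleus versus EDL, and no alternative fit took it past an adjusted p of 0.00547. It also rose by 1.89 (SE 0.34, adjusted p = 0.00382) in soleus versus psoas. This call was lost without psoas 1 (adjusted p = 0.0120), psoas 2 (adjusted p = 0.0127), or soleus 4 (adjusted p = 0.0117), and with read trimming as a covariate (adjusted p = 0.0232), at log2 differences of 1.60 to 2.03. It was also lost with the replicate number as a block (adjusted p = 0.0182) and when tested against a fold change of 2 (adjusted p = 0.0811). Over the 21 fits, its adjusted p ranged from 8.85e-07 to 0.0232.

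In libraries of the same animal code, the log2 difference of Lmod2 was 2.06 (soleus 1 over psoas 1), 3.28 (soleus 2 over EDL 3), and 1.75 (soleus 4 over psoas 3). Among untrimmed libraries, the soleus mean was higher by 3.40 than EDL 3 and by 1.54 than psoas 3. For psoas versus EDL, the difference was 1.16 (SE 0.35, adjusted p = 0.0557), and it was 0.81 in the trimmed and 1.86 in the untrimmed libraries. Without EDL 3, it was 1.03 (adjusted p = 0.0933).

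Lmod3, the leiomodin of skeletal muscle and a gene of nemaline myopathy, was lowest in EDL. Its normalized CPM was 97.4, 99.4, and 88.5 in EDL 1 to 3, 188, 154, and 219 in psoas 1 to 3, and 225, 226, 188, and 212 in soleus 1 to 4. Every EDL library was below every other library, and psoas and soleus overlapped. The tendon and fibroblast markers given with Neb separated EDL from every other library in the opposite direction, as did the RNA integrity number. Their part in the Lmod3 values was not tested. Lmod3 rose by 1.16 log2 units (SE 0.17, adjusted p = 0.00110) in soleus versus EDL. This passed in each fit without 1 library (adjusted p = 0.00123 to 0.00816) and missed with read trimming as a covariate (log2 difference 1.08, adjusted p = 0.0120, the highest of the 21 fits). The soleus mean was higher by 1.26 than untrimmed EDL 3. In psoas versus EDL, the log2 difference was 0.98 (SE 0.18, adjusted p = 0.00813), a fold change of 1.97, just under the fold threshold. Within trimmed and untrimmed libraries, it was 0.80 and 1.31. Without EDL 3, it was 0.93 (adjusted p = 0.00858, the lowest of the fits without 1 library, the highest being 0.0359 without EDL 1). Over the 21 fits, the adjusted p of this difference ranged from 9.6e-08 with DESeq2 to 0.0360 in the fit of the 2 muscles alone. Soleus versus psoas gave 0.18 (SE 0.16, adjusted p = 0.509).

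The makeup of the pointed end at the RNA level was described by the share of each gene in the summed counts per kilobase of the 5 tropomodulin and leiomodin genes, a measure free of the library scaling. Tmod4 held 68.0%, 68.7%, and 76.2% in EDL 1 to 3, 64.2%, 71.4%, and 60.2% in psoas 1 to 3, and 48.7%, 48.8%, 55.6%, and 50.8% in soleus 1 to 4. Thus, Tmod4 made up a smaller share in each soleus library than in any fast muscle library. Lmod3 held 20.7%, 20.4%, and 13.6% in EDL, 23.7%, 18.8%, and 27.0% in psoas, and 31.6%, 35.9%, 31.7%, and 31.4% in soleus. Lmod2 held 2.13%, 2.37%, and 1.19% in EDL, 3.29%, 1.41%, and 3.46% in psoas, and 15.3%, 11.9%, 8.06%, and 14.1% in soleus. Both leiomodins held a larger share in every soleus library than in any EDL or psoas library. Mean shares of Tmod1 were 7.48% in EDL, 8.26% in psoas, and 3.05% in soleus, and those of Tmod3 were 1.47%, 0.602%, and 0.963%.

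**Figure D3:**
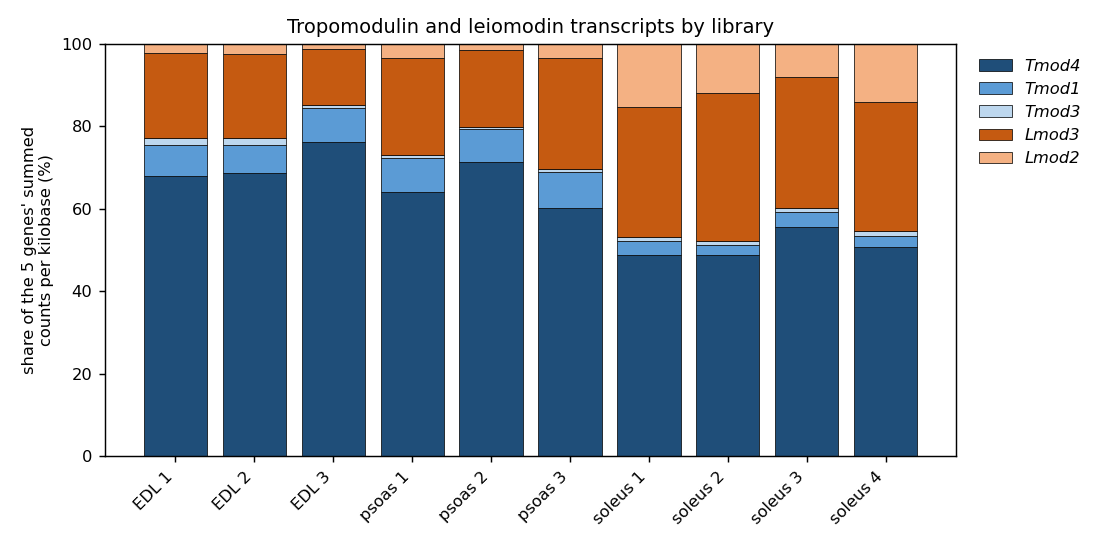
Share (%, vertical axis from 0 to 100) of each tropomodulin and leiomodin gene in their summed counts per kilobase, 1 stacked bar for each library (horizontal axis). Mean shares of Lmod2 were 1.90% in EDL, 2.72% in psoas, and 12.3% in soleus, while those of Tmod4 were 71.0%, 65.3%, and 51.0%.

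Ratios within a library, chosen after the values of the genes were seen, put these differences side by side. The ratio of Lmod2 to Tmod1 per kilobase was 0.286, 0.351, and 0.144 in EDL 1 to 3, 0.401, 0.180, and 0.395 in psoas 1 to 3, and 4.41, 5.19, 2.13, and 5.33 in soleus 1 to 4. Lmod2 was the lower of the pair in all 6 fast muscle libraries and the higher in all 4 soleus libraries. The sum of both leiomodins over the sum of the 3 tropomodulins was 0.295, 0.294, and 0.173 in EDL, 0.369, 0.253, and 0.437 in psoas, and 0.884, 0.917, 0.660, and 0.833 in soleus. The soleus values were above all others, and EDL and psoas overlapped. Soleus 3, from the youngest mouse, had the lowest Lmod2 to Tmod1 ratio and the lowest leiomodin to tropomodulin ratio of the soleus libraries.

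**Figure D4:**
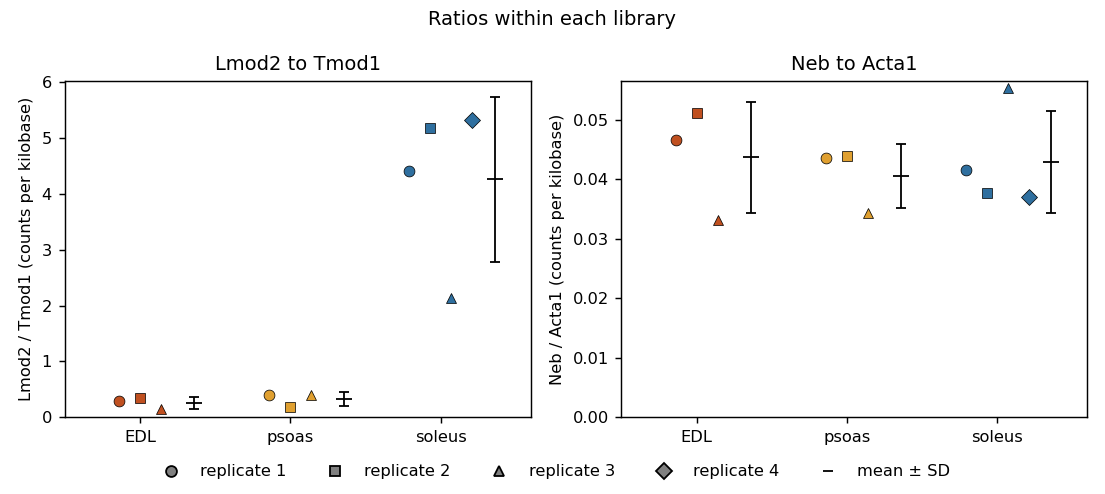
Ratios of counts per kilobase (vertical axes, from 0) of Lmod2 to Tmod1 and of Neb to Acta1 in each library of EDL, psoas, and soleus (horizontal axes), with the mean ± SD beside each group. The Lmod2 to Tmod1 ratio was 2.13 to 5.33 in soleus and at most 0.401 elsewhere, and the Neb to Acta1 ratio overlapped between all muscles.

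Across the 10 libraries, Lmod2 and Lmod3 varied together (Pearson r = 0.87, Spearman rho = 0.89 on the log2 of normalized CPM plus 1), as did Tmod1 and Tmod4 (r = 0.88, rho = 0.73) and Neb and Lmod3 (r = 0.82, rho = 0.56). The pairs that varied most in opposite directions were Tmod3 and Tmod4 (r = -0.76, rho = -0.62), Neb and Tmod3 (r = -0.71, rho = -0.58), and Tmod1 and Lmod2 (r = -0.68, rho = -0.54). These correlations describe libraries of 3 muscles that share scaling and, in part, animals. Of 12663 genes with a symbol and a mean of at least 1 CPM, the nearest to Neb by Pearson r were Myom1 (0.989), Smg5 (0.987), and Txlnb (0.975). Myom1 codes for myomesin, a protein of the M-line. For Tmod1 they were Aldoa (0.991), Eno3 (0.988), and Tpi1 (0.988), which code for enzymes of glycolysis. The nearest to Tmod4 were Psme4 (0.974), Cnep1r1 (0.970), and Kat8 (0.968), and the nearest to Tmod3 were Riok1 (0.971), Rnd3 (0.958), and Sptan1 (0.956). Lmod2 had Slc4a7 (0.979), Smg1 (0.973), and Sim2 (0.965) as its nearest, and Lmod3 had Tbx3 (0.980), Tbc1d4 (0.972), and Acsl1 (0.967). Sim2 was nearly absent from EDL (at most 0.0234 normalized CPM) and averaged 0.946 in psoas and 5.06 in soleus, so that its r depends on the added 1. With Spearman's rho in place of r, 1 of these 18 neighbors remained.

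Of the other tropomodulin and leiomodin genes, Tmod2, a tropomodulin of neurons, averaged 13.0 normalized CPM in EDL, 8.38 in psoas, and 10.3 in soleus and passed in no comparison (lowest adjusted p = 0.216). Lmod1, the leiomodin of smooth muscle, averaged 3.03, 16.5, and 1.68 normalized CPM. It ranged from 1.17 to 5.45 in EDL and from 6.17 to 27.2 in psoas. In soleus versus psoas, it fell by 3.29 log2 units (SE 0.55, adjusted p = 0.00242), and was at 2.42 (SE 0.57, adjusted p = 0.0221) in psoas versus EDL. Summed smooth muscle markers (4 of 4 in the table) were at 31.4 to 70.5 normalized CPM in EDL, 24.5 to 55.3 in psoas, and 43.5 to 63.5 in soleus. The part of these markers in the Lmod1 values was not tested. Among the nebulin relatives, Nrap rose by 1.501 (SE 0.31, adjusted p = 0.00828) in soleus versus EDL, and Nebl, the nebulette gene of heart, averaged under 1 normalized CPM in each muscle.

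A list of 35 further thin filament genes (actin and tropomyosin, barbed-end capping, nebulin and tropomodulin relatives, filament turnover, kelch proteins, nucleation, Z-disk and assembly, and transcription) was set beside the 6. In soleus versus EDL, 7 rose and 2 fell, against 3.59% and 2.18% of all genes. Those that rose were Tpm3 (the slow tropomyosin, 6.42 on the log2 scale), Actn2 (3.15), Xirp1 (1.94), Nrap, Wdr1 (1.38), Des (desmin, 1.33), and Cfl2 (the muscle cofilin, 1.02), and those that fell were Actn3 (the fast fiber actinin, -3.63) and Actc1 (-3.49). In soleus versus psoas, 3 rose, namely Tpm3 (7.99), Actn2 (2.08), and Xirp1 (1.27), and 6 fell, namely Actn3 (-4.64), Lmod1, Fhod1 (-1.99), Tpm1 (-1.46), Mrtfa (-1.42), and Pfn1 (-1.14), against 2.99% and 2.71% of all genes. In psoas versus EDL, 2 rose (0.54% of all genes), Fhod1 (1.80) and Tpm2 (1.36), and 0 fell (1.57% of all genes), with 16 of the 35 at an unadjusted p under 0.05 (4679 of all 16112 genes). Both calls were lost in the fit of these 2 muscles alone, with the replicate number as a block, and without EDL 1, EDL 2, psoas 1, or psoas 2, whereas DESeq2 called 7 of the list and 1095 of all genes.

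The list's median log2 fold change was 0.46 for psoas versus EDL, 0.05 for soleus versus EDL, and -0.34 for soleus versus psoas. Of the kelch proteins, which act on thin filament proteins, Klhl41 was at 1.003 (SE 0.23, adjusted p = 0.0135) in soleus versus EDL and 0.89 (SE 0.23, adjusted p = 0.0257) in soleus versus psoas. Klhl40, which stabilizes leiomodin 3 and nebulin, averaged 47.7 normalized CPM in EDL, 44.0 in psoas, and 56.1 in soleus (lowest adjusted p = 0.292), and Kbtbd13 averaged 17.8, 24.5, and 18.3 (lowest adjusted p = 0.379). Thus, Lmod3 passed in soleus versus EDL while its stabilizer Klhl40 gave a log2 difference of 0.23 (SE 0.20, adjusted p = 0.438). The difference between the 2 genes was not tested.

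**Figure D5:**
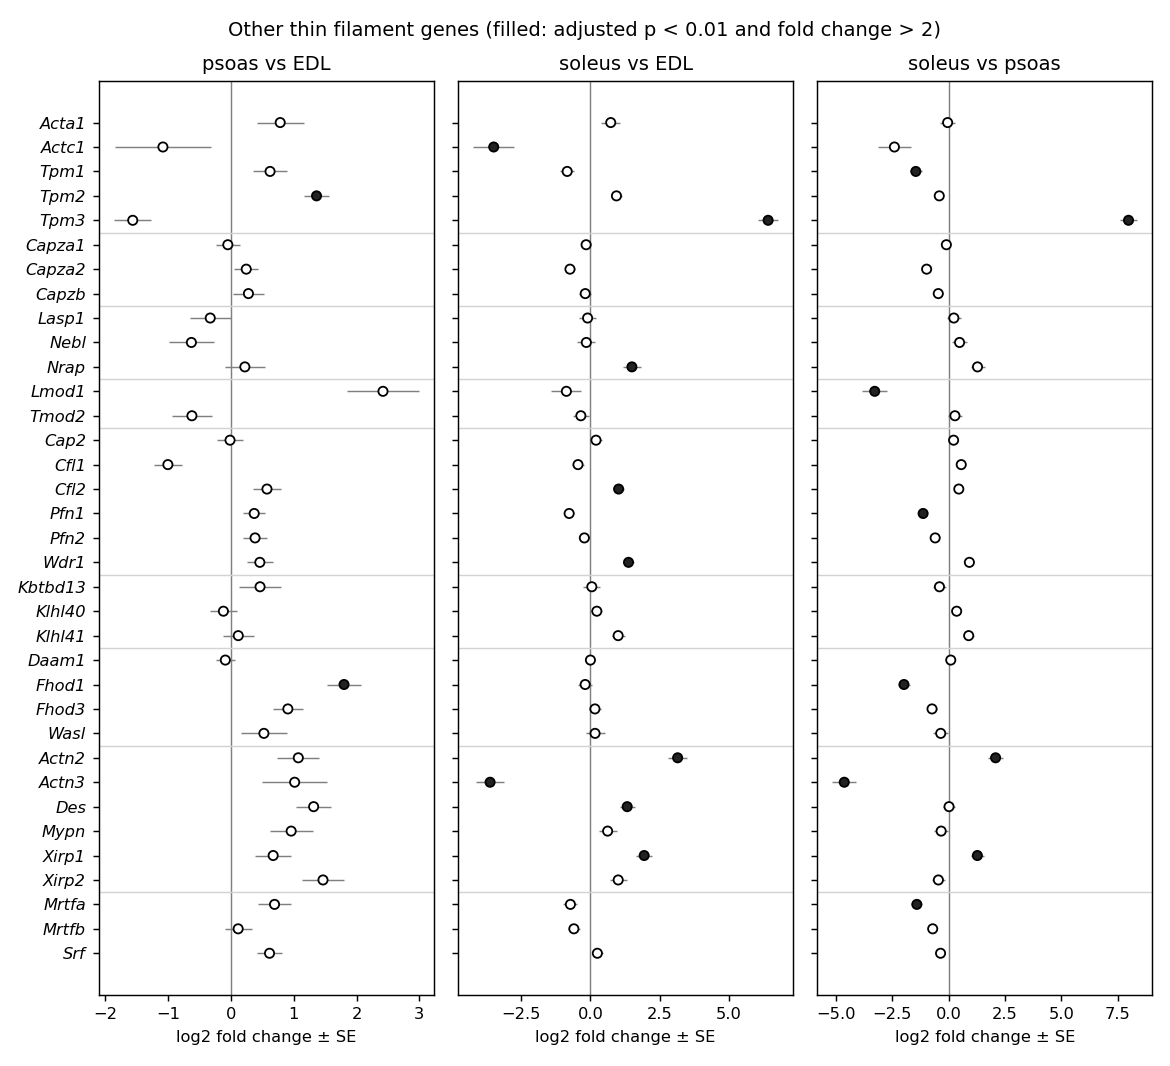
Log2 fold changes with their SE (horizontal axes, which differ in range between panels) of the 35 other thin filament genes (vertical axis, grouped by role with lines between groups) in the 3 comparisons, with filled points for genes past the thresholds. The widest differences are those of Tpm3 in the soleus comparisons, at 6.42 and 7.99.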

How the data were processed

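RNA-seq of 3 EDL, 3 psoas, and 4 soleus libraries (stranded total RNA, ribosomal and globin RNA depleted) was used. The authors trimmed low-quality reads (Trimmomatic 0.32), aligned pairs with TopHat2 2.1.1 to GRCm38, counted reads per gene in R, and dropped genes without 3 samples of 10 or more reads. The deposited values are raw counts, 1 file per library, and all 16112 genes met that filter. Handling of reads with several alignments is not given in the sources used here, and a count from such reads may be split between related genes.

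Groups came from the sample labels. Counts were fitted with edgeR 4.0.16 (R 4.3.3, limma 3.58.1) by its quasi-likelihood test with TMM factors, all 10 libraries in 1 fit and no covariate, and p-values were adjusted over all genes (Benjamini-Hochberg). The p-values measure the spread between these libraries, some of which share an animal. The libraries were sequenced in several runs, and the run of each library is not given in the sources used here. The fit therefore has no term for it, whereas the authors corrected their sample distances, heatmaps, and principal components for the sequencing batch. The study used DESeq2, which is an alternative here (1.42.0). Other alternatives were limma-voom, other normalizations, filters, and thresholds, covariates for trimming and sex, the replicate number, the animal, thinned counts, and fits without each library. The code was tested on simulated data. FPKM used DESeq2 size factors and summed exon lengths from GENCODE M21 (16032 of the genes have a symbol). Other values were computed in Python 3.11.15 with numpy 2.4.6 and pandas 2.3.3.

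The 6 genes, the list of 35, and the marker lists (muscle fiber, erythroid, smooth muscle, endothelium, tendon, fibroblast, Schwann cell, macrophage) were chosen with earlier results of these data known. Named are the 6 genes, the 3 nearest of each by Pearson r, and of the list each gene past the thresholds in a comparison plus 9 set by name. Mkl1 and Mkl2 of the list were matched as Mrtfa and Mrtfb. Depth limits precision most for Lmod2, with 126 reads in EDL 3.

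Summed Schwann cell markers, which are not given with a gene, were at 11.0 to 18.3 normalized CPM in EDL, 7.61 to 49.1 in psoas, and 9.61 to 21.8 in soleus.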

Additional observations from a re-analysis of the deposited data

Results flagged for a closer look

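In soleus, the share of Lmod3 among the 5 tropomodulin and leiomodin genes was 31.6%, 31.7%, and 31.4% in libraries 1, 3, and 4 and 35.9% in library 2. The gap of soleus 2 to the nearest other library was 0.934 of the whole range, which is above Dixon's critical value for 4 libraries. In the same library, the share of Tmod1 was the lowest of the soleus libraries (2.30%), and its Lmod3 level (226 normalized CPM) lay next to that of soleus 1 (225). The test was run on 12 measures in soleus, and it marks about 5% of groups by chance, so that 1 such value among 12 is not unusual.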

How the results depend on the processing

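For the 6 genes in the 3 comparisons (18 results, 23 alternative settings each), 383 of 414 values kept their sign and their side of the thresholds, 23 lost a call, 2 gained one, and 6 changed sign. The sign changes were those of Neb in soleus versus psoas, at -0.18 with read trimming as a covariate, -0.17 with sex as a covariate, -0.0076 with the animal as a random effect, -0.0071 without psoas 2, and -0.086 without soleus 3, and of Tmod4 in soleus versus EDL, at 0.016 without EDL 3. Without 1 library, these differences ranged from -0.086 to 0.10 for Neb and from -0.38 to 0.016 for Tmod4. Upper-quartile normalization moved the median of all genes in soleus versus EDL from -0.05 to -0.14. The cause of each change was not tested.

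Numbers of genes past the thresholds were 340 (psoas versus EDL), 929 (soleus versus EDL), and 917 (soleus versus psoas). They were 1095, 1520, and 1382 with DESeq2, 605, 371, and 566 with read trimming as a covariate, 1789, 2995, and 2340 at an adjusted p under 0.05 with no fold threshold, and 27, 185, and 176 when tested against a fold change of 2. For psoas versus EDL alone, they were 153 in a fit of those 2 muscles, 865 with sex as a covariate, and 201 with thinned counts. Without 1 library, they ranged from 61 (without psoas 2) to 963 (without EDL 3), from 385 (without EDL 1) to 1511 (without EDL 3), and from 493 (without psoas 2) to 964 (without EDL 3). Of the 6 genes, 1 passed in psoas versus EDL at an adjusted p under 0.05, 1 in soleus versus EDL and 0 in soleus versus psoas against a fold change of 2, and 1 in soleus versus psoas with read trimming as a covariate. Without 1 library, they were 0, 2, and 1 to 2. Of the list of 35, psoas versus EDL gave 7 with DESeq2, 0 in a fit of those 2 muscles, 6 with trimming, 7 with sex, 5 with the animal as a random effect, 1 with thinned counts, 8 at the looser threshold, 0 against a fold change of 2, and 0 to 6 without 1 library. Soleus versus EDL gave 5 with trimming, 15 at the looser threshold, 3 against a fold change of 2, and 5 to 9 without 1 library, and soleus versus psoas gave 17, 2, and 5 to 10 in the last 3 settings.

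Samples with the same replicate number are only in part of the same animal code. Deviations of same-numbered libraries correlated at -0.31 to 0.51 (9 pairs), and 5 of 9 libraries were closest to their own number, so that the numbers were not taken as a pairing. With the replicate number as a block, 146, 586, and 539 genes passed, with 0, 2, and 1 of the 6 genes (Tmod1 was lost in soleus versus EDL, adjusted p = 0.0212, and Lmod2 in soleus versus psoas, adjusted p = 0.0182) and 0, 7, and 5 of the list.

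Without length correction, mean shares were 13.97%, 15.7%, and 5.82% for Tmod1 (EDL, psoas, soleus), 7.69%, 3.23%, and 5.19% for Tmod3, 57.6%, 53.9%, and 42.3% for Tmod4, and 34.9% for Lmod3 in soleus. With the longest transcript as the length, they were 3.22%, 1.35%, and 2.27% for Tmod3, 57.4% for Tmod4 in soleus, and 13.98%, 18.3%, and 27.0% for Lmod3. In untrimmed libraries only (1 of EDL and 1 of psoas), they were 8.26% and 8.74% for Tmod1, and in EDL 0.803% for Tmod3, 76.2% for Tmod4, 1.19% for Lmod2, and 13.6% for Lmod3. The Neb to Acta1 ratio was 0.755, 0.702, and 0.743 without length correction, and 0.0331 (EDL) and 0.0343 (psoas) in untrimmed libraries. With Spearman's rho, 1 of the 18 nearest genes remained.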
